A study of Mus musculus with 18 samples.

Results

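The genotype difference common to motor neurons of the spinal cord and of the facial nucleus was taken from 12 of the 18 arrays of this mouse study. The 6 arrays of SOD1 mutant motor neurons, 3 spinal and 3 facial, were set against the 6 arrays of wildtype (WT) motor neurons, 3 spinal and 3 facial, in one additive model of genotype and site. The other 6 arrays, ventral spinal cord tissue from 3 SOD1 mutant and 3 WT samples, did not enter this model and are used below as another reading of the same genes. They did enter the normalization and the choice of the probe set that stands for each gene. Every sample was hybridised to 1 Affymetrix mouse expression array after T7-based linear amplification of its RNA. The labels give neither the SOD1 allele nor whether it is a transgene, its promoter, the sex of the mice or how the motor neurons were picked. The code D60 that every title carries is not explained there. Samples are not tied to animals in the labels, so a spinal, a facial and a tissue sample may come from one mouse. The p-values therefore reflect the spread among these arrays alone, and part of that spread may be technical.

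SOD1 encodes the cytosolic copper-zinc superoxide dismutase, which turns superoxide into hydrogen peroxide, and mutations of it cause a familial form of amyotrophic lateral sclerosis. Spinal and facial motor neurons are large cholinergic cells that both degenerate in that disease, and misfolded SOD1, the proteasome, chaperones and the glia around the cells are the usual subjects of work on it. In the nervous system of such mice, astrocytes raise the intermediate filament Gfap and microglia take on an activated state. Type I interferon signals through a transcription factor complex that binds repeated GAAA motifs in the promoters of its target genes.

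Levels are log2(intensity + 16) after quantile normalization, and a difference is SOD1 mutant minus WT on that scale, with site held constant. Values below 8.74, the 40th percentile of all genes over the 12 arrays, are close to background, and no fold is given for a gene whose WT level lies there. The labelled cell type was checked with its markers. Isl1, a transcription factor of motor neurons, averaged 14.20 over the motor neuron arrays and 9.32 in tissue, Prph, the gene of the intermediate filament peripherin, 15.82 and 12.40, and Chat, the acetylcholine-synthesizing enzyme, 9.45 and 7.48. Not every marker was higher than in tissue. Slc5a7, the choline transporter of cholinergic cells, averaged 9.98 on the motor neuron arrays and 10.17 in tissue. Nefm, a neurofilament gene, was nearly equal, with 16.86 and 16.77. Mnx1, a transcription factor of spinal motor neurons, lay between 11.88 and 12.93 on the spinal arrays and between 4.35 and 6.37 on the facial arrays. Markers of other cells were present on the motor neuron arrays too. Of microglia, Csf1r averaged 13.11 on them and 14.94 in tissue, Tyrobp 11.32 and 12.42, and Cx3cr1 9.30 and 10.99, whereas P2ry12, Aif1 and Itgam averaged below the background level on the motor neuron arrays. Aqp4 of astrocytes averaged 12.68 on the motor neuron arrays and 16.17 in tissue, Mbp of myelin 16.66 and 17.56, Cldn5 of endothelium 10.51 and 13.27, Rgs5 of mural cells 12.24 and 14.43, and Slc32a1 of inhibitory interneurons 11.05 and 13.82. Pecam1 and Cdh5 of endothelium, Pdgfrb of pericytes, Gad2 of inhibitory interneurons, Cd3e of T cells and Hba-a1 of red cells averaged below background on the motor neuron arrays. Arrays of one motor neuron group correlated with each other at r of 0.912 to 0.952 across genes.

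Of 10916 genes tested, 77 passed an adjusted p of 0.05 in the pooled model (limma with Benjamini-Hochberg adjustment), which is 0.705% of them. In mutant motor neurons 27 genes rose (0.247%) and 50 fell (0.458%). Those that rose include astrocyte, interferon, lysosomal and antigen presentation genes and 1 heat shock gene, and those that fell include 3 proteasome subunits and 1 subunit of the respiratory chain. The median log2 difference of the 27 was 0.86, with a range of 0.35 to 3.13, and that of the 50 was -0.80, with a range of -1.61 to -0.29. Over all genes tested, 53.4% were higher in mutants and the median difference was 0.02. At an unadjusted p under 0.05 there were 1958 genes, 1060 higher and 898 lower.

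For 69 of the 77, all 3 mutant arrays lay on one side of all 3 WT arrays at both sites, 21 above and 48 below. Such a separation in the same direction at both sites was found for 2.74% of all genes tested, 1.29% above and 1.45% below. The 77 were chosen for their genotype difference on these same arrays, so their count is no separate support. The test of whether the difference itself depended on site called 0 genes in limma, with a smallest adjusted p of 0.219 and 987 genes at an unadjusted p under 0.05. Of the 77, 6 had an unadjusted p under 0.05 in that test. The 5 genes with the smallest p and a larger spinal than facial difference were Col24a1 (spinal minus facial 2.27), Laptm5, a lysosomal protein of blood cells (2.48), Cog1 (1.71), Amy1 (1.93) and H2-K1 (1.63). The 5 with a smaller spinal difference were Nudt12 (-1.43), Ighm (-1.17), Coa8 (-1.25), Ncoa2 (-1.36) and Mycbp (-0.94). All 10 had an adjusted p of 0.219.

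**Figure D1:**
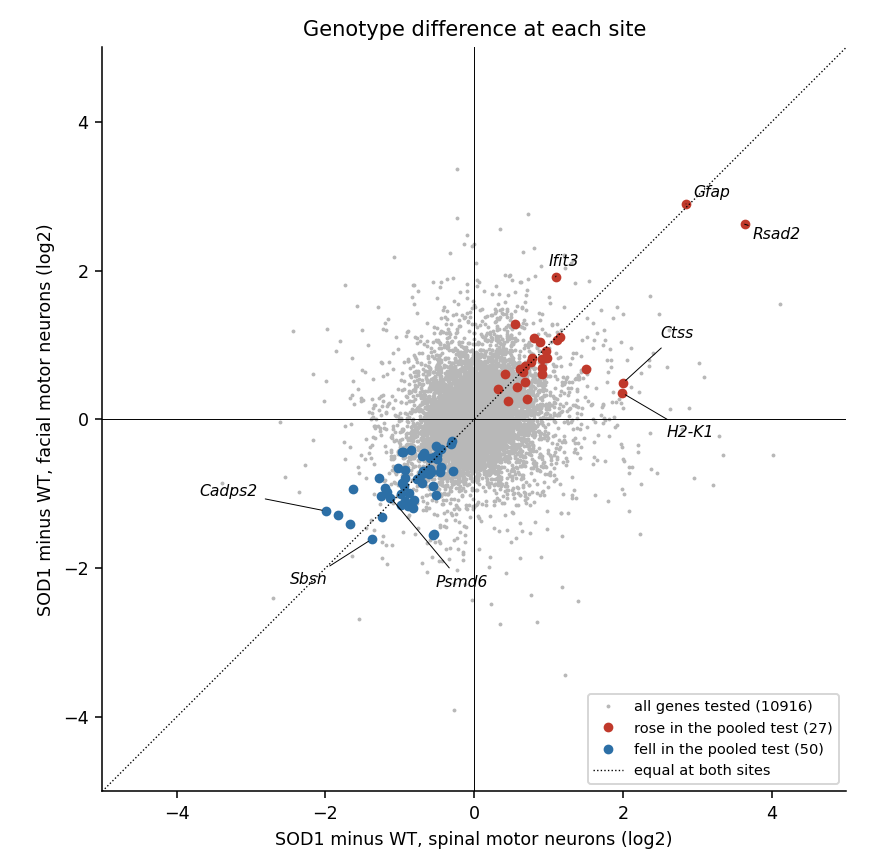
The log2 difference SOD1 minus WT in spinal motor neurons (x axis) against that in facial motor neurons (y axis), for the 10916 genes tested (grey), the 27 that rose (red) and the 50 that fell (blue); the dotted line marks equal differences. Gfap and Psmd6 lie on or close to the line, while Ctss and H2-K1 lie near 2.0 for spinal and below 0.50 for facial motor neurons.

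The 3' to 5' signal ratio of the actin control probe sets, a measure of how far the amplified RNA reaches towards the 5' end, moved with genotype. Its log2 value was 5.29, 4.80 and 4.66 on the mutant spinal arrays, against 5.83, 5.35 and 5.38 on the WT spinal arrays. It was 5.08, 5.88 and 4.73 on the mutant facial arrays, against 6.22, 6.10 and 5.90 on the WT facial arrays. Mutant arrays were thus lower at both sites, without overlap, by 0.72 on average (exact two-sided permutation test within site, p = 0.005, the smallest that 400 relabellings can give, and 0.01 after adjustment over both control genes). The Gapdh ratio differed by -0.44 (exact p = 0.075). In tissue the actin ratio averaged 0.71 ± 0.10 in mutants and 0.71 ± 0.05 in WT (SD, n = 3 each).

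With the actin ratio as a covariate in the model, 3 genes passed the adjusted threshold, Pqbp1, Abhd3 and Gfap, and 461 passed an unadjusted p under 0.05. All 27 genes that rose were still higher and all 50 that fell were still lower in this fit, with medians of 0.69 and -0.70. The standard errors were 1.54 times as large at the median, since ratio and genotype overlap. Of the 77 genes, 68 had an unadjusted p under 0.05. Because the 77 were chosen for their difference on these same arrays, the kept directions and this count are no separate support. The calls below are from the model without the ratio, and all of them except those 3 were lost in the model with it. Medians of gene lists are given with the ratio as a covariate where it turned their sign or moved them by over 1.5 times.

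**Figure D2:**
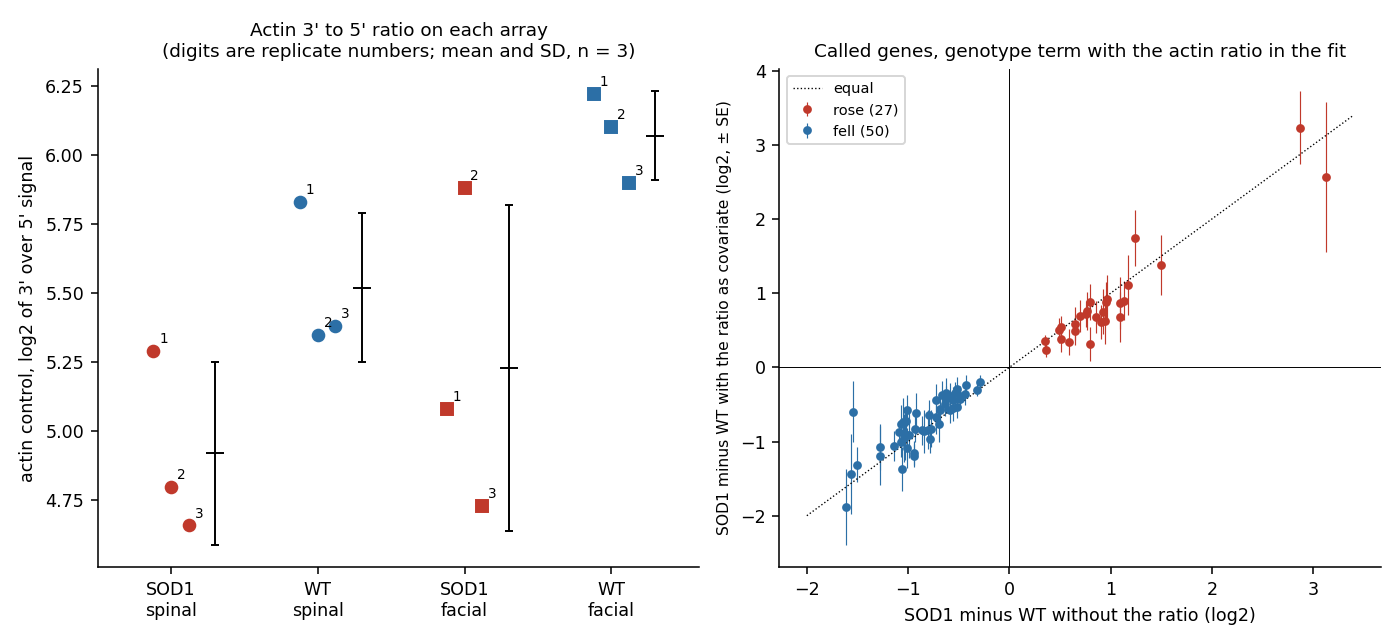
Left, the log2 ratio of 3' over 5' signal of the actin control on each motor neuron array, with mean and SD (n = 3) and the replicate number beside each point. Right, the genotype difference of the 77 called genes without the ratio (x axis) and with the ratio as a covariate (y axis, bars are SE). The points keep their side of 0, and the dotted line marks equality. Some leave that line, such as Primpol at -1.54 without and -0.6 with the ratio, and Ctss at 1.24 and 1.74.

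Single arrays also moved the count. Leaving out each array in turn gave between 23 genes (without WT facial replicate 3) and 650 genes (without WT spinal replicate 2, 341 higher and 309 lower), and 165 without mutant facial replicate 2. Without both WT motor neuron arrays numbered 1, 25 genes passed, 21 of them among the 77, and the test between sites called 6. Of the 77 genes, 20 passed with every array left out in turn: Gfap, Odc1, Hspa1b, Sod1, Kcnj10 and Ifit3 among those that rose, and Psmd6, Sbsn, Ccni, Fam120a, Cnot7, Abhd3, Pqbp1, Trhr, Ermp1, Anapc15, Ep400, Gtf3c3, Zfp711 and Klhl13 among those that fell.

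Sod1 itself was among the brightest genes and rose in mutants. Its level was 16.84, 16.87 and 16.85 in mutant and 16.36, 16.45 and 16.38 in WT spinal motor neurons. In facial motor neurons it was 16.86, 16.71 and 16.69 in mutants and 16.57, 16.47 and 16.49 in WT. Mutants lay above WT on all arrays of both sites, by 0.35 (SE 0.06, limma adjusted p = 0.0121), or 1.27-fold. With each array set to the same median instead of quantile normalization the difference was 0.13 (adjusted p = 0.547). A Sod1 probe set that was brighter in motor neurons differed by 0.09 (adjusted p = 0.37 when it stands for the gene), and dimmer ones by -0.14 and -1.3, while the fifth was at background. Whether these probe sets read a mutant gene of another species is not given in the sources used here, so Sod1 checks the genotype labels only in part.

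Gfap, the intermediate filament of astrocytes that rises in reactive gliosis, had the smallest p among the genes that rose. It measured 13.84, 14.34 and 13.65 in mutant and 11.14, 10.81 and 11.35 in WT spinal motor neurons, and 10.54, 10.21 and 9.49 in mutant and 7.26, 8.33 and 5.96 in WT facial motor neurons. The difference was 2.87 (SE 0.32, limma adjusted p = 0.000314), with 2.85 at the spinal and 2.90 at the facial site. The WT facial level, 7.18 ± 1.19 (SD, n = 3), was below background, and the spinal level of both genotypes was above it. Of both other Gfap probe sets above background, one was higher by 2.14, with 1.83 at the spinal and 2.44 at the facial site, and the other by 0.99, with 2.10 at the spinal and -0.12 at the facial site.

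Few other astrocyte genes passed the test. Of 8 reactive astrocyte genes tested, 7 were higher and Gfap alone passed the test, and the median was 0.26. At the spinal site 8 were higher with a median of 0.68, and at the facial site 5 with a median of 0.14. Of 17 general astrocyte markers, 13 were higher with a median of 0.21 (0.32 with the actin ratio as a covariate), and 0 passed. Slc1a3, a glutamate transporter of astrocytes, differed by 0.97 (SE 0.46, adjusted p = 0.285) and Aldh1l1, an astrocyte enzyme of folate metabolism, by 0.55 (adjusted p = 0.287). The log2 of the summed intensities of the 17 markers ran from 17.97 to 18.06 on the mutant and 17.76 to 18.09 on the WT spinal arrays, and from 17.98 to 18.17 on the mutant and 17.80 to 18.17 on the WT facial arrays. The groups overlapped at both sites. In samples of this kind more cells of a type and more RNA per cell cannot be told apart.

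Kcnj10, the inward rectifier through which astrocytes take up potassium, rose by 0.86 (SE 0.15, adjusted p = 0.0121). It measured 14.56, 13.98 and 14.10 in mutant and 12.99, 13.24 and 13.67 in WT spinal motor neurons, and 13.78, 13.40 and 14.04 in mutant and 12.95, 12.99 and 12.83 in WT facial motor neurons. Sparc, a secreted matrix protein, rose by 0.90 (SE 0.16, adjusted p = 0.0151), or 1.87-fold, and a second Sparc probe set differed by 0.81. On the facial arrays one mutant Sparc value, 13.19, lay among the WT values of 12.75 to 13.26. Chst11, a chondroitin sulfotransferase, rose by 0.65 (adjusted p = 0.0306). Of 18 matrix genes tested, 11 were higher, Sparc alone rose and the median was 0.05 (0.09 with the actin ratio).

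Interferon-response genes were the list with the most members past the test among those that rose: 3 of 17 tested rose, 0 fell, 15 were higher, and the median difference was 0.90, or 0.59 with the actin ratio as a covariate. Over all genes tested, 0.247% rose, 0.458% fell and 53.4% were higher, with a median of 0.02. Counts of the other lists are to be read beside the same shares. Ifit3, an interferon-induced protein that restrains viral translation, rose by 1.5 (SE 0.26, limma adjusted p = 0.0121), or 2.84-fold. It measured 11.72, 11.66 and 11.57 in mutant and 10.62, 10.26 and 10.79 in WT spinal motor neurons, and 10.63, 11.75 and 12.30 in mutant and 9.49, 9.72 and 9.72 in WT facial motor neurons. All mutant arrays lay above all WT arrays at both sites, and the mutant facial arrays spread most.

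Rsad2, the interferon-induced antiviral protein viperin, had a difference of 3.13 (SE 0.65, adjusted p = 0.0385). Its levels were 11.35, 11.31 and 10.49 in mutant and 7.11, 6.70 and 8.43 in WT spinal motor neurons, and 8.91, 8.53 and 11.76 in mutant and 7.72, 8.57 and 5.04 in WT facial motor neurons. The WT means of 7.42 ± 0.90 and 7.11 ± 1.84 (SD, n = 3) were below background, so no fold is given, and the facial groups overlapped. Ifi27, an interferon-induced mitochondrial membrane protein, was bright and rose by 0.49 (SE 0.11, adjusted p = 0.0465), without overlap at either site. Rsad2 passed with 5 of the 12 arrays left out in turn.

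Of the interferon genes that did not pass, Ddx58, the sensor of viral RNA also called RIG-I, differed by 2.01 (adjusted p = 0.147), Oasl2 by 1.59 (adjusted p = 0.108) and Iigp1, an interferon-induced GTPase, by 1.41 (adjusted p = 0.127). Ifit2 was at -0.07 and Dhx58 at -0.55. The median of the list stayed between 0.55 and 1.31 in all 30 alternatives tried, and the number that rose was between 0 and 6. The median was 1.30 at the spinal and 0.92 at the facial site.

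Promoters of Ifit3 and Rsad2 are shown because they hold the interferon motif, GAAA followed by any 2 bases and GAAA again. In the RefSeq table of promoters (GRCm38.p6, 250 bases before to 50 after the start), the motif was searched on both strands and lay in 3.99% of 27025 genes. Among the interferon list it lay in 14 of 21 genes, or 66.7%. Of the 24 genes that rose and are in the table, Ifit3, Rsad2 and Ctss hold it (12.5%), and of 39 that fell, Btaf1 does (2.56%). Ifi27, the other gene of the interferon list that rose, has no entry there and was not searched. Capitals mark the matches, which lie on the strand opposite to the gene and so read as TTTC repeats: 2 in Ifit3, at -156 to -147 and -122 to -113 from the start, and 1 in Rsad2, at -120 to -111. The Ifit3 promoter is chr19:34583279-34583578 on the plus strand and the Rsad2 promoter chr12:26456403-26456702 on the minus strand.
Ifit3: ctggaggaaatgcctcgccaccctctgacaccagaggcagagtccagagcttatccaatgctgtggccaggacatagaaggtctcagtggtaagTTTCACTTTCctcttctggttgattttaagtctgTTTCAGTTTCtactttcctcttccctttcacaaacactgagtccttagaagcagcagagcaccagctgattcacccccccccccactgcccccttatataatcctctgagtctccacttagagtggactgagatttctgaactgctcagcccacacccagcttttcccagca
Rsad2: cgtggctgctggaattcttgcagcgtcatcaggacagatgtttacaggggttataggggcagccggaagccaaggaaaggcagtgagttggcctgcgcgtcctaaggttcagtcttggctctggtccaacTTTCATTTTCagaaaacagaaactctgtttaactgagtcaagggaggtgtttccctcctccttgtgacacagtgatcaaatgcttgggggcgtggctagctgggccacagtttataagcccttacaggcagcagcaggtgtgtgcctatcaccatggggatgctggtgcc

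Hspa1b, a stress-inducible chaperone of the Hsp70 family, rose by 1.13 (SE 0.17, limma adjusted p = 0.00668), or 2.19-fold. It measured 12.70, 13.57 and 13.34 in mutant and 12.15, 12.14 and 11.85 in WT spinal motor neurons, and 12.46, 12.34 and 12.47 in mutant and 10.82, 11.70 and 11.42 in WT facial motor neurons, so the groups did not overlap. Both other Hspa1b probe sets were higher as well, by 1.49 and 1.62. Hspa1a, a near-identical copy whose transcripts such probe sets may share, differed by 0.33 (adjusted p = 0.482).

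Of 29 heat shock and chaperone genes tested, 22 were higher, Hspa1b alone rose and the median was 0.14 (0.07 with the actin ratio). Stip1, a cochaperone that links Hsp70 to Hsp90, differed by 0.56 (adjusted p = 0.0543), and it, Hspb8 and Hspa1b were the members with groups apart at both sites. The cytosolic Hsp90 gene Hsp90aa1 was at 0.02 and the constitutive Hsp70 gene Hspa8 at 0.06. The motif of heat shock elements, GAA, TTC and GAA with any 2 bases between each, was searched on both strands and lay in 5 of the 25 promoters of this list in the table, against 0.662% of all genes, and was not found in those of the genes that rose or fell.

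Among genes of microglia, lysosomes and antigen presentation, Ctss, Ctsz and H2-K1 rose, each with a larger difference on the spinal arrays, although no difference between sites passed its test. Ctss, a lysosomal cathepsin of microglia and macrophages, rose by 1.24 (SE 0.26, adjusted p = 0.0396). It measured 14.96, 14.94 and 14.38 in mutant and 13.21, 12.24 and 12.83 in WT spinal motor neurons, and 12.59, 13.38 and 13.36 in mutant and 12.61, 12.82 and 12.44 in WT facial motor neurons, where the groups overlapped. The spinal difference was 2.0 and the facial 0.49 (adjusted p = 0.339 for the difference between sites). Ctsz, another lysosomal cathepsin, rose by 1.09 (SE 0.23, adjusted p = 0.0401), with 1.5 at the spinal and 0.67 at the facial site. H2-K1, a class I histocompatibility gene that presents peptides to T cells, rose by 1.17 (SE 0.26, adjusted p = 0.0491), with 1.99 and 0.36 (adjusted p = 0.219 for the difference between sites). Its probe sets are of a kind that may also bind other class I genes. Ctss passed with 4 and H2-K1 with 3 of the 12 arrays left out in turn.

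Of 13 microglia identity genes tested, Ctss alone rose, 11 were higher, and the median was 0.92, with 1.97 at the spinal and 0.14 at the facial site. Csf1r, the growth factor receptor of microglia, differed by 0.82 (adjusted p = 0.265). Tyrobp, an adaptor of microglial receptors, differed by 0.92 (adjusted p = 0.331). For Csf1r and Tyrobp the mutant mean was higher at the spinal and lower at the facial site, where the groups overlapped. Facial Csf1r was 12.93, 12.33 and 12.59 in mutants and 12.13, 13.53 and 13.16 in WT. Facial Tyrobp was 10.54, 11.78 and 10.05 in mutants and 11, 11.18 and 11.25 in WT. C1qc, a chain of complement C1q, differed by 1.43 (adjusted p = 0.186), with 2.25 at the spinal and 0.62 at the facial site. The log2 of the summed intensities of the list ran from 16.29 to 16.70 on the mutant and 13.86 to 15.24 on the WT spinal arrays, which did not overlap. It ran from 14.65 to 14.91 on the mutant and 14.16 to 15.18 on the WT facial arrays, which did. In tissue the sums were 17.13 to 17.26 in mutants and 16.43 to 16.54 in WT.

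Of 14 microglia activation genes, 12 were higher and Ctsz alone rose, with a median of 0.39, or 0.87 at the spinal and 0.03 at the facial site. Of 28 lysosome genes, 24 were higher, Ctss and Ctsz rose, and the median was 0.23 (0.08 with the actin ratio). Of 11 antigen presentation genes, 7 were higher and H2-K1 alone rose, with a median of 0.19. The part that cells other than motor neurons have in these differences was not tested.

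The remaining genes among the 15 with the smallest p that rose have no list in common. Odc1, the rate-limiting enzyme of polyamine synthesis, rose by 0.76 (SE 0.12, adjusted p = 0.00668). Its levels did not overlap at either site, with 14.76, 15.15 and 14.61 in mutant and 13.81, 13.97 and 13.99 in WT spinal motor neurons, and 14.29, 14.33 and 14.48 in mutant and 13.97, 13.53 and 13.79 in WT facial motor neurons. Both other Odc1 probe sets differed by 0.01 and 0.06. Xpo1, the export receptor that carries proteins out of the nucleus, rose by 0.51 (SE 0.10, adjusted p = 0.0232). Eif1b, a translation initiation factor, rose by 0.36 (adjusted p = 0.0268). Sec22c, a protein of vesicle traffic between endoplasmic reticulum and Golgi, rose by 0.95 (adjusted p = 0.0212), Nipal3 by 0.80 (adjusted p = 0.0302), and Tbc1d9, a protein with a Rab GTPase-activating domain, by 1.09 (adjusted p = 0.0385). Ctnnbip1, an inhibitor of beta-catenin, rose by 0.70 (adjusted p = 0.0358).

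Psmd6, a subunit of the 19S regulatory particle of the proteasome, had the smallest p of all genes and fell by 1.09 (SE 0.10, limma adjusted p = 0.000149). It measured 14.44, 14.59 and 14.47 in mutant and 15.68, 15.41 and 15.79 in WT spinal motor neurons, and 14.41, 14.83 and 14.32 in mutant and 15.57, 15.76 and 15.39 in WT facial motor neurons. The level in WT was thus 2.13 times that in mutants, and the groups were apart at both sites. The other Psmd6 probe set, which was brighter in motor neurons and dimmer over all 18 arrays, differed by -0.13 (adjusted p = 0.487 when it stands for the gene).

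Of 31 proteasome subunit genes tested, Psmd6, Psmb7 and Psmd14 fell and 0 rose, while 0.458% of all genes tested fell and 0.247% rose. The list had 21 members lower, and its median was -0.08, against 0.02 over all genes tested. With the actin ratio as a covariate 14 members were higher and the median was -0.03. Psmb7, a catalytic beta subunit of the core particle, fell by 0.70 (SE 0.15, adjusted p = 0.0385), with 13.07, 13.01 and 13.14 in mutant and 13.91, 13.68 and 14.55 in WT spinal motor neurons, and 13.23, 13.43 and 13.37 in mutant and 13.78, 13.76 and 13.80 in WT facial motor neurons. Psmd14, the deubiquitinase of the lid, fell by 0.32 (SE 0.06, adjusted p = 0.025). Psmc6 and Psmc3, ATPases of the base, also lay apart at both sites, with -0.45 (adjusted p = 0.0592) and -0.29 (adjusted p = 0.113). The highest member, Psmd11, was at 0.26. Psmd5, an assembly chaperone of the regulatory particle that is not a member of the list, fell by 0.63 (adjusted p = 0.0465). In the 30 alternatives between 0 and 6 members fell and the median stayed between -0.20 and -0.02.

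**Figure D3:**
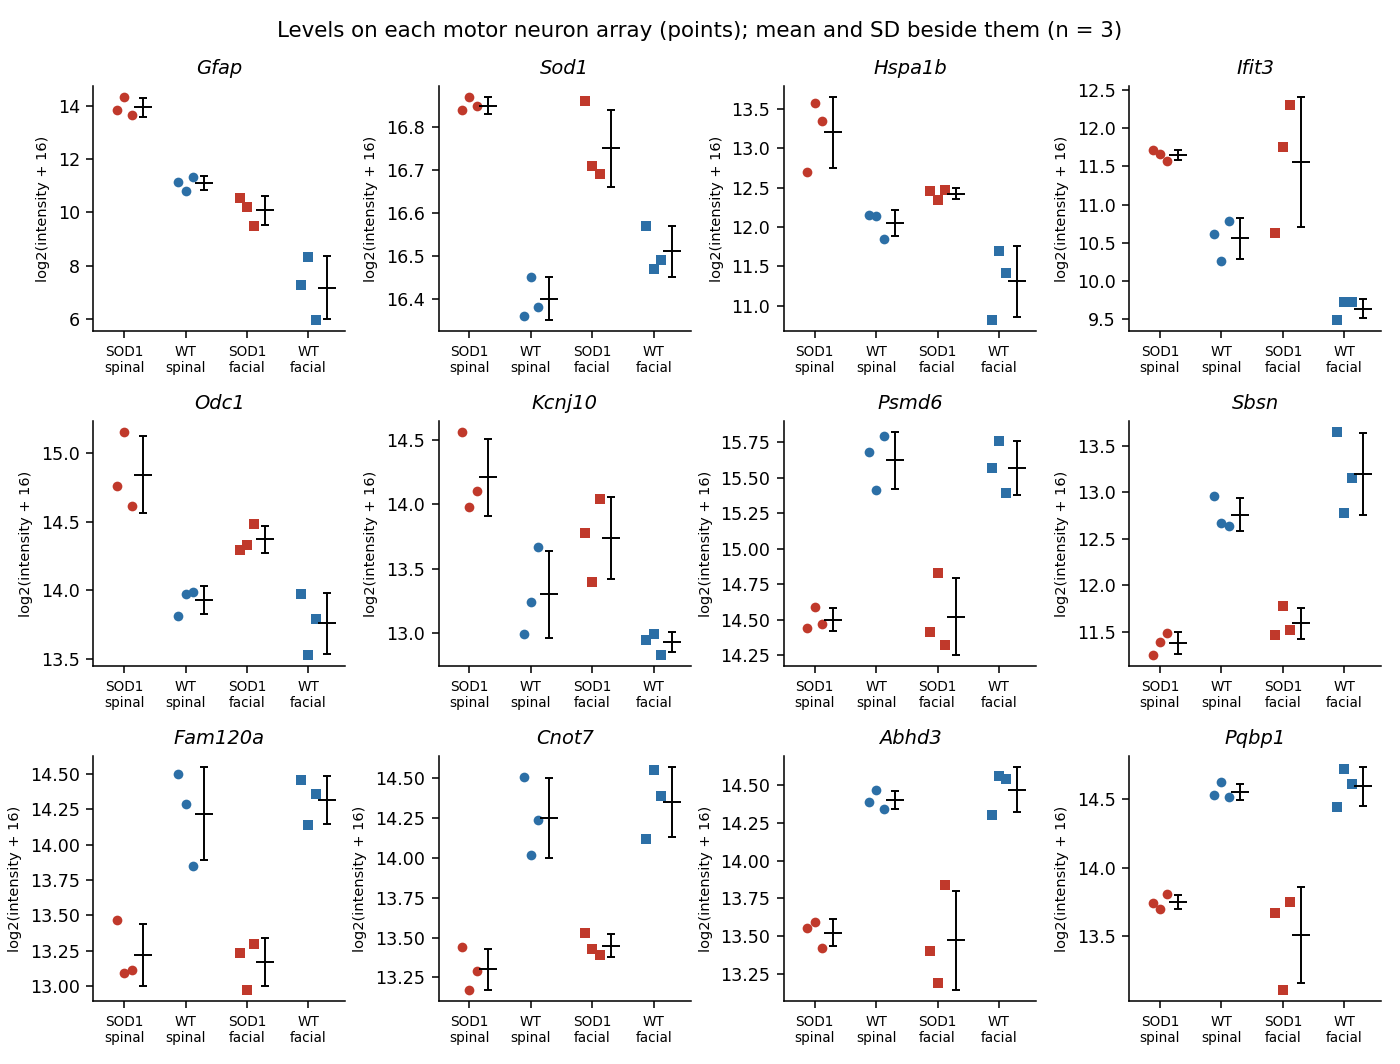
Log2(intensity + 16) on each motor neuron array for 6 genes that rose and 6 that fell, with SOD1 mutants in red, WT in blue, spinal arrays as circles and facial arrays as squares; the bar beside each group is its mean and SD (n = 3). For each of the 12 genes the mutant and WT arrays of a site do not overlap, and Psmd6 lies between 14.32 and 14.83 in mutants and between 15.39 and 15.79 in WT.

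Of the other genes among the 15 with the smallest p that fell, those with a role in transcription or RNA come first, a grouping made after their values were seen. The list of splicing genes had 0 of 40 members past the test. Cnot7, a deadenylase of the CCR4-NOT complex, which starts mRNA decay, fell by 0.93 (SE 0.11, adjusted p = 0.000558), with 13.44, 13.17 and 13.29 in mutant and 14.51, 14.02 and 14.24 in WT spinal motor neurons, and 13.53, 13.43 and 13.39 in mutant and 14.12, 14.55 and 14.39 in WT facial motor neurons. Pqbp1, a splicing-associated polyglutamine-binding protein, fell by 0.94 (SE 0.12, adjusted p = 0.000666). Gtf3c3, a subunit of the RNA polymerase III factor TFIIIC, fell by 1.01 (adjusted p = 0.00939). Ep400, a chromatin remodelling ATPase, fell by 0.78 (adjusted p = 0.00838), Zfp711, a zinc finger transcription factor, by 1.07 (adjusted p = 0.0099), and Ybx3, a cold shock domain protein that binds DNA and RNA, by 1.01 (adjusted p = 0.0133). For each of these 6 genes all mutant arrays lay below all WT arrays at both sites. Their other probe sets above background differed less or went the other way. They were at -0.07 and 0.39 for Ep400, -0.25 and -0.14 for Cnot7, -0.3 for Ybx3 and 0.51 for Pqbp1.

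Fam120a, an RNA-binding scaffold of Src kinase signalling, fell by 1.07 (SE 0.13, adjusted p = 0.000558), with 13.47, 13.09 and 13.11 in mutant and 14.50, 14.29 and 13.85 in WT spinal motor neurons, and 13.23, 12.97 and 13.30 in mutant and 14.46, 14.14 and 14.36 in WT facial motor neurons. Ccni, cyclin I, fell by 1.14 (SE 0.13, adjusted p = 0.000314). Its probe set that was brightest in motor neurons, however, was at 0.26 (adjusted p = 0.326) and another at -0.03. Sbsn, which encodes the secreted epithelial protein suprabasin, fell by 1.5 (SE 0.16, adjusted p = 0.000234), which is 2.82-fold lower in mutants, with 11.25, 11.39 and 11.49 in mutant and 12.96, 12.67 and 12.64 in WT spinal motor neurons, and 11.47, 11.78 and 11.52 in mutant and 13.65, 12.78 and 13.16 in WT facial motor neurons. A second Sbsn probe set differed by -0.63. Klhl13 and Anapc15, components of ubiquitin ligases, fell by 0.79 (adjusted p = 0.0116) and 1.28 (adjusted p = 0.00838). Abhd3, a phospholipase, fell by 0.94 (SE 0.11, adjusted p = 0.000558) and Ermp1, a protease of the endoplasmic reticulum, by 0.86 (adjusted p = 0.00392). The other Ermp1 probe set above background was at 1.13, with 2.42 at the spinal and -0.16 at the facial site.

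Trhr, the receptor for thyrotropin-releasing hormone, through which that peptide excites motor neurons, fell by 1.02 (SE 0.13, adjusted p = 0.000828). It measured 13.78, 13.71 and 13.60 in mutant and 14.60, 14.43 and 14.72 in WT spinal motor neurons, and 12.50, 13.13 and 12.68 in mutant and 14.20, 13.67 and 13.93 in WT facial motor neurons. All mutant arrays lay below all WT arrays at both sites, and the level in WT was 2.03 times that in mutants.

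The probe sets of a gene did not always read alike. Of the 27 genes that rose, 15 had a second probe set above background, and 14 of those second probe sets were higher too, with a median of 0.36, against 0.80 for the probe sets used. Of the 50 that fell, 25 had one, and 17 of those were lower, with a median of -0.15, against -0.79 for the probe sets used. With every probe set tested on its own, 1 of the second probe sets of the genes that rose passed the test and 0 of those of the genes that fell. For Pqbp1 the other probe set was at 0.51, for Anapc15 at 0.31 and for Fam120a at -0.15. Why probe sets of one gene differ was not tested.

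Orthologs of human ALS genes were described next to Sod1. Of 24 tested, Sod1 rose and Atxn2, an RNA-binding protein whose human repeat expansions raise ALS risk, fell by 0.77 (SE 0.16, adjusted p = 0.0385). Atxn2 measured 13.35, 13.55 and 13.11 in mutant and 13.76, 14.23 and 13.57 in WT spinal motor neurons, and 12.65, 12.07 and 12.27 in mutant and 13.56, 13.10 and 13.38 in WT facial motor neurons. Its other probe sets above background differed by -0.12, -0.42, -0.26 and 1.02. Tardbp, the gene of TDP-43, was at -0.08 (adjusted p = 0.802), and C9orf72 at 0.00 (adjusted p = 0.994). Of 29 antioxidant genes, Sod1 rose and Gpx1, a glutathione peroxidase that removes hydrogen peroxide, fell by 0.44 (SE 0.10, adjusted p = 0.0471), and the median was 0.06. The mitochondrial Sod2 was at -0.14 (adjusted p = 0.276).

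Of 45 respiratory chain genes, Ndufa5, a subunit of complex I, fell by 0.29 (adjusted p = 0.0419), 19 were higher and the median was -0.01. For this list the median was between -0.21, at a common median of the arrays, and 0.02, and it was 0.01 with the actin ratio. Of 34 ribosomal protein genes 0 passed, 23 were lower and the median was -0.08, which was -0.24 at a common median of the arrays and 0.08 with the actin ratio, with Rps6 at -0.81 (adjusted p = 0.0781). Of 33 translation initiation genes 0 passed, and Eif4ebp2, a repressor of initiation, was at 0.77 (adjusted p = 0.0952).

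Genes of motor neuron identity and function had 0 members past the test. Of 19 identity genes, 15 were higher with a median of 0.16, which was -0.04 at a common median of the arrays and -0.01 with the actin ratio. Slc18a3, the vesicular acetylcholine transporter, differed by 0.82 (SE 0.23, adjusted p = 0.108) and Ret, the receptor of the GDNF family, by 0.20 (adjusted p = 0.24). Of 28 synaptic vesicle genes, 23 were higher with a median of 0.18 (0.04 with the actin ratio), and Syp, synaptophysin, was at 0.68 (adjusted p = 0.162). Of 22 neurofilament and cytoskeleton genes, 19 were higher with a median of 0.16, which was -0.02 at a common median and 0.01 with the actin ratio, and Tubb2b, a beta-tubulin, was at 0.66 (adjusted p = 0.0944). Of 27 axonal transport genes, 19 were higher, with a median of 0.16 (0.03 with the actin ratio).

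Lists of neuronal injury and stress had no member past the test. Of 22 axon injury genes, 19 were higher with a median of 0.26 (0.13 with the actin ratio). Atf3, a transcription factor induced in injured neurons, had a difference of 2.83 (SE 0.69, adjusted p = 0.0733), with 4.12 at the spinal and 1.55 at the facial site, and its WT means were below background. Gap43, a growth cone protein, was at 1.02 (adjusted p = 0.0944). Of 16 immediate early genes, 12 were higher with a median of 0.46, or 0.14 with the actin ratio. Of 28 genes of the unfolded protein response, 20 were higher with a median of 0.12, or -0.02 with the actin ratio, and Hyou1, a chaperone of the endoplasmic reticulum, was at 0.43 (adjusted p = 0.205). Of 26 apoptosis genes 0 passed, with Bcl2l2, which restrains cell death, at 0.52 (adjusted p = 0.0559).

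Markers of the cells beside motor neurons other than microglia and astrocytes showed 0 calls. Of 15 oligodendrocyte and myelin genes, 5 were higher with a median of -0.20, and with the actin ratio 10 were higher with a median of 0.07. Of 9 endothelial genes, 4 were higher with a median of -0.06, or 0.09 with the actin ratio. Of 7 genes of inhibitory interneurons, 3 were higher with a median of -0.22, or 0.38 with the actin ratio, and Slc32a1, the vesicular GABA and glycine transporter, was at 1.71 (SE 0.60, adjusted p = 0.168).

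**Figure D4:**
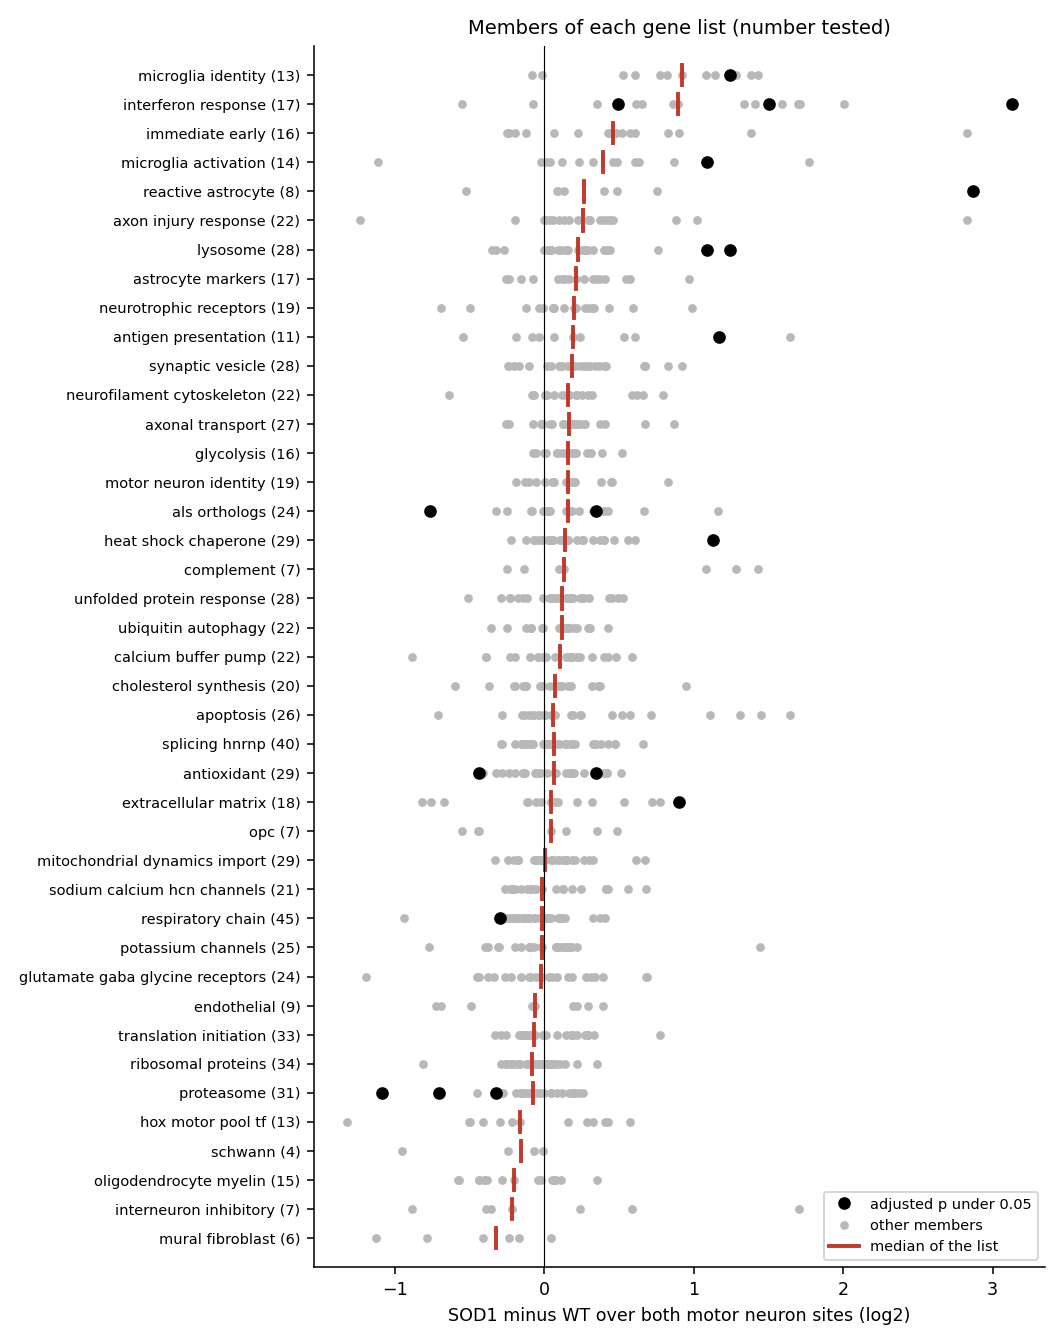
The pooled log2 difference SOD1 minus WT of each tested member of the gene lists with at least 4 members tested; black points passed an adjusted p of 0.05, grey points did not, and red bars are medians. The medians of microglia identity and interferon response, 0.92 and 0.90, lie farthest to the right, and the 3 black points of the proteasome list lie left of 0.

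The tissue arrays, which had no part in the motor neuron model, were read for the same genes. Of the 27 genes that rose in motor neurons, 18 were also higher in mutant tissue, with a median of 0.09, and 5 passed the test there: Ifit3, Gfap, Ctss, Ctsz and Sod1. Of the 49 genes that fell and were tested in tissue, 42 were lower there, with a median of -0.12, and 3 passed: Sbsn, Ep400 and Ccni. Over all genes tested in both, 48.1% were higher in tissue and the median was -0.01, and 0.641% of genes tested in tissue passed, 0.504% as higher.

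Ifit3 differed by 1.58 in tissue (SE 0.12, adjusted p = 0.0013), Sbsn by -1.28 (SE 0.13, adjusted p = 0.00366) and Ep400 by -0.91 (adjusted p = 0.00629). The other Ep400 probe sets above background in motor neurons differed by -0.26 and -0.29 in tissue. For Sbsn the second probe set was at -0.38 in tissue. For Ccni the probe set used was at -0.56 in tissue, and the others above background in motor neurons were at 0.27 and 0.03. Gfap differed by 0.88 (SE 0.13, adjusted p = 0.0198), from a level of 15.14 in mutant and 14.26 in WT tissue. Psmd6 differed by -0.05 (SE 0.06, adjusted p = 0.838), Kcnj10 by -0.15 (adjusted p = 0.908) and Sparc by 0.05 (adjusted p = 0.811).

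Whether the difference in motor neurons was unlike that in tissue was tested over all 18 arrays. The fit took 1 spread per gene for both kinds of array. Arrays of one tissue group, however, correlated at r of 0.97 to 0.978 and those of one motor neuron group at 0.912 to 0.952. The actin ratio differed by -0.72 with genotype in motor neurons and averaged 0.71 in both genotypes in tissue. Its part in this contrast was not tested. Of 10916 genes 1 passed, or 0.00916%: Psmd6, with a motor neuron minus tissue difference of -1.03 (SE 0.16, adjusted p = 0.0375). Psmd6 averaged 14.50 in mutant and 15.62 in WT spinal motor neurons, 14.52 in mutant and 15.57 in WT facial motor neurons, and 14.97 in mutant and 15.02 in WT tissue. The call was lost with 13 of the 18 arrays left out in turn, with adjusted p of 0.00226 to 0.199, and the count reached 35 without WT spinal replicate 2. The other Psmd6 probe set differed by -0.13 in motor neurons and 0.14 in tissue. With each array set to the same median the smallest adjusted p of this test was 0.436. Fam120a followed with -1.0 (adjusted p = 0.309), and Gfap was at 1.99 (SE 0.49, adjusted p = 0.382). The others of the 5 with the smallest p per direction were Ric8a at -1.11, S100a10 at -1.15 and Sfrp4 at -2.27, and on the higher side Aak1 at 0.84, Podxl2 at 0.85, Neurl1a at 1.38 and Cys1 at 2.97, each with an adjusted p of 0.382. For the other 76 genes a difference from tissue did not pass the test.

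**Figure D5:**
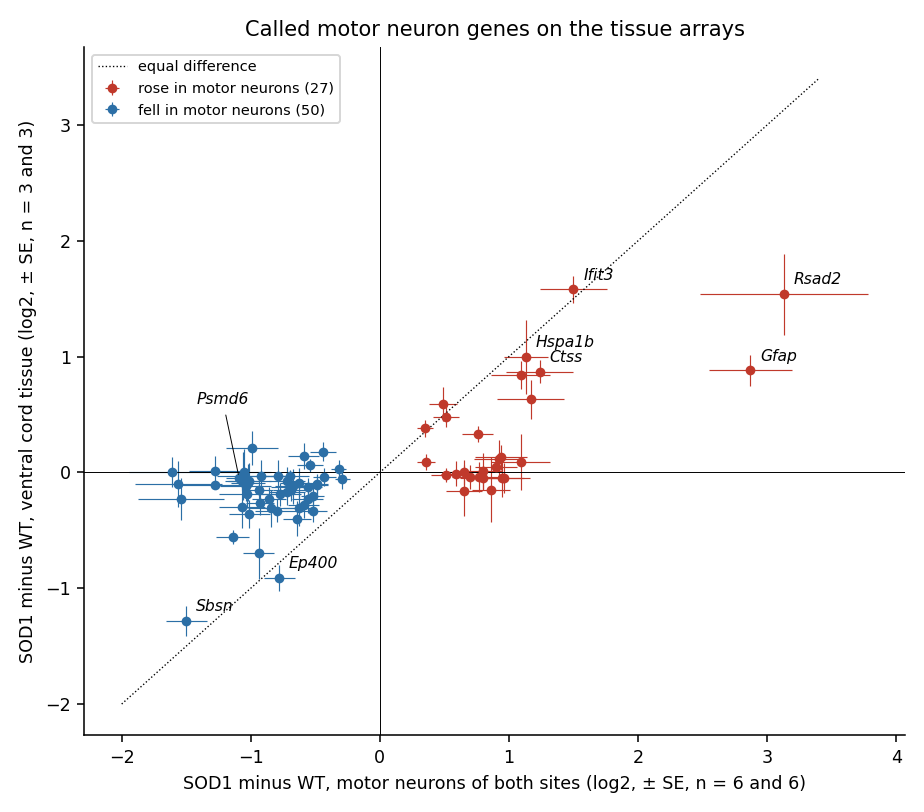
The SOD1 minus WT log2 difference of the 77 called genes in motor neurons (x axis, n = 6 and 6 arrays) and in ventral cord tissue (y axis, n = 3 and 3 arrays), with SE bars; the dotted line marks equal differences. Ifit3, Sbsn and Ep400 lie near the line, while Psmd6 lies at -1.09 in motor neurons and -0.05 in tissue.

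The genes that fell were spread over the chromosomes, with 5 of 50 on the X chromosome, which holds 3.32% of the genes tested. Chromosomes 2, 5, 6 and 7 also had 5 each, with 8.07%, 6.65%, 4.9% and 7.15% of the genes tested. Those on the X chromosome were Pqbp1, Zfp711, Klhl13, Rpgr, mutated in retinal degeneration, and Utp14a, a factor of ribosome assembly. Of the 27 genes that rose 0 lay on the X chromosome. At the edge of the threshold, Septin3, Rac1 and H2-K1 were just inside, with adjusted p of 0.0475, 0.0482 and 0.0491, and Dnah2, Scyl3 and ND5 just outside, with 0.0501, 0.0515 and 0.0518.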

How the data were processed

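The authors deposited 1 linear intensity for each of 45101 probe sets on each of 18 arrays, and the steps from scanner images to these values are not given in the sources used here. Deposited medians ran from 286 to 341 on motor neuron arrays and from 533 to 583 on tissue arrays. Arrays have no read depth, and their number, 3 per group, limits the precision. Here log2(intensity + 16) was taken and all 18 arrays were quantile normalized. Gene names come from the platform annotation: 34945 probe sets had 1 symbol, 932 several, 9160 none and 64 were controls. Where several probe sets had the same single symbol, the one brightest on average over all arrays stood for the gene, which gave 18193 genes, and genes below the 40th percentile over the 12 motor neuron arrays were left out. Genotype plus site was fitted with limma 3.58.1 in R 4.3.3 (lmFit, eBayes, trend = TRUE), and p-values were adjusted by Benjamini-Hochberg over all 10916 genes, with a threshold of 0.05. The difference between sites, that between motor neurons and tissue, and the tissue difference were fitted likewise. In simulated data with 10916 genes the pooled fit recovered 24% of genes changed by 0.5 on the log2 scale, 78% at 1 and 90% at 2. Of its 152 calls there, 9 were false. The simulated noise was independent between arrays, without outlying arrays and without a control ratio that moves with genotype. These shares therefore need not hold for the real arrays. Named genes were Sod1, the 15 with the smallest p per direction, up to 4 called members of each list (2 by smallest p where none passed), and the 5 with the smallest p per direction of the other contrasts; predicted genes were only counted. Cell type markers and further genes named in the text were chosen after their values were seen. The members and lists were chosen with earlier results of these data known. Alternatives changed the normalization, pseudocount, filter, probe set, variance model, arrays, block and control ratio, and the Gapdh ratio was added after seeing the data.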

Additional observations from a re-analysis of the deposited data

Results flagged for a closer look

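The difference between motor neurons and tissue passed the test for Psmd6, at -1.03. In groups of 6 arrays of one genotype, with the mean of each site taken off, 1 array stood far from the others for 8 of 79 measures, in 8 of 158 groups. Chance gives about 1 in 20. For mutant facial replicate 2, Pqbp1 was at -0.94 with the nearest mutant array at -0.45, Ctsz at -0.37 with the nearest at 0.48, and Iftap at 0.07 with the nearest at -0.33. For mutant spinal replicate 2, Odc1 was at 0.76 with the nearest at 0.41. For WT spinal replicate 2, Nme2 was at -0.13 with the nearest at 0.22, and Septin3 at 0.27 with the nearest at -0.40. For WT spinal replicate 3, Psmb7 was at 0.99 with the nearest at 0.35, and Gpx1 at 0.48 with the nearest at 0.25.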

How the results depend on the processing

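Of the 77 genes, 76 kept their direction under every alternative that could give a value, and the other, Ccni, turned to 0.26 with the probe set that is brightest in motor neurons. These alternatives refit the same arrays, mostly with the same probe set per gene. Second probe sets kept the direction less often: of the genes that fell, 17 of 25 above background were lower. Over these genes, 845 of 2294 values under an alternative no longer passed and 1448 still did. The pooled count of 77 was 68 at a common median of the arrays, with 76.5% lower against 64.9%, and 27 without the variance trend. It was 1506 with array weights (45.5% lower), whose estimate did not converge, 640 with all 18 arrays in one fit (47.8% lower), 3 with the actin ratio and 14 with the Gapdh ratio, and 25 without both WT arrays numbered 1. Leaving out 1 array gave 23 to 650, with 47.5% lower in the 650. Same-numbered arrays of both genotypes at one site deviated together at r of 0.02 to 0.11, against -0.11 to 0.04 for other numbers. As not every pair reached 0.1 and the labels tie no numbers, the samples were not treated as paired. With the number within site as a block the count was 45, with the number over both sites averaged 38, and with it as a random block 110 (consensus correlation -0.056). The site difference called 1 gene without the trend, 6 without both WT arrays numbered 1, and 0 to 3 without 1 array. The difference from tissue called 0 at a common median, 2 without the filter, 0 without the trend, 1243 with array weights and 0 to 35 without 1 array. The tissue count of 70 was 31 without the trend, 137 with the number as a block and 13 to 119 without 1 array. Close to background, as for Rsad2 and Atf3 in WT, differences are less certain than their size. The causes were not tested.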
